A study of Mus musculus with 12 samples.

Results

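Hnf4a, Nr1h4, Maf, Pax2, Pax8, Lhx1, Sox4 and Myc are 8 transcription factor genes, listed by name because they are known either for the identity of the adult kidney tubule or for building and repairing the nephron. They are 8 of the 27179 genes in the table, and all 8 are among the 14972 genes that passed the filter on low values, a TPM (transcripts counted per gene length, on a scale with the same total in every library) of at least 1 in at least 3 libraries. Their levels were read in RNA sequencing libraries of whole kidneys from 12 mice in 4 groups of 3. Mice that were wild-type or FAN1KO received either saline or cisplatin, a drug that crosslinks DNA, at 2 mg/kg once a week over 5 weeks into the peritoneum. All mice were labelled 8 to 12 weeks old and of a mixed strain background. FAN1KO mice carried γGT1-Cre and Fan1-/-, so that FAN1, a nuclease of DNA crosslink repair, was lost where the Ggt1 promoter drives Cre, which is mainly in proximal tubule cells. The comparison asks how the factors' RNA differed when kidneys labelled as lacking FAN1 in the proximal tubule met the drug.

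In the adult proximal tubule, Hnf4a keeps transporter and metabolic genes on, and Nr1h4 encodes FXR, the bile acid receptor. In the embryo, Pax2, Pax8 and Lhx1 act in the tissues from which nephrons form. Pax2, Sox4 and its relative Sox9, and Myc are also known to be raised in tubules that are injured or dividing.

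Fan1 itself did not separate the genotypes. Fan1 TPM with saline was 3.80, 3.35 and 1.98 in wild-type and 1.17, 1.54 and 2.28 in FAN1KO mice, and with cisplatin it was 2.33, 3.57 and 3.32 in wild-type and 2.72, 3.51 and 1.55 in FAN1KO mice, so RNA of the targeted gene did not check the labels, and FAN1KO below means libraries so labelled. Reads recovered from the steps in the TPM numbered 37200280 to 82944934 per library. In each group 1 library (FAN1KO cisplatin 3, FAN1KO saline 1, wild-type cisplatin 1 and wild-type saline 3) held RNA of Y-linked genes, and these 4 lay apart from the other 2 libraries of their group on the first principal component, so results are given with and without them. Over all tested genes, the log2 fold change had a median of 0.24 for FAN1KO against wild-type under cisplatin and 0.37 for cisplatin against saline in FAN1KO kidneys. Higher genes made up 81.8% and 87.7% of the calls in these comparisons, against 54.6% and 53.3% when libraries were scaled by their median ratio, and 71.1% in the first when mitochondrially encoded genes were left out. Mitochondrially encoded genes held 10.2% to 16.7% of the TPM in FAN1KO cisplatin kidneys and 18.3% to 22.7% in the other 9.

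The levels of the 8 factors spanned a wide range. In wild-type saline kidneys the mean TPM fell from Hnf4a (389) through Maf (127), Nr1h4 (86.6), Pax8 (49.2), Pax2 (16.5), Sox4 (14.2) and Lhx1 (11.9) to Myc (2.83). Maf and Nr1h4 overlapped there, as did Pax2 with Sox4 and Sox4 with Lhx1, so their order is not set by these mice. In FAN1KO cisplatin kidneys Hnf4a was still the highest (273), but Maf (114), Pax8 (102) and Nr1h4 (88.7) each overlapped the next in line, down to Sox4 (79.7), and Pax2 (32.2) and Myc (20.05) stood above Lhx1 (7.37). Sox4 thus moved from beside Lhx1 to beside Nr1h4, and Myc from last place to above Lhx1.

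**Figure D1:**
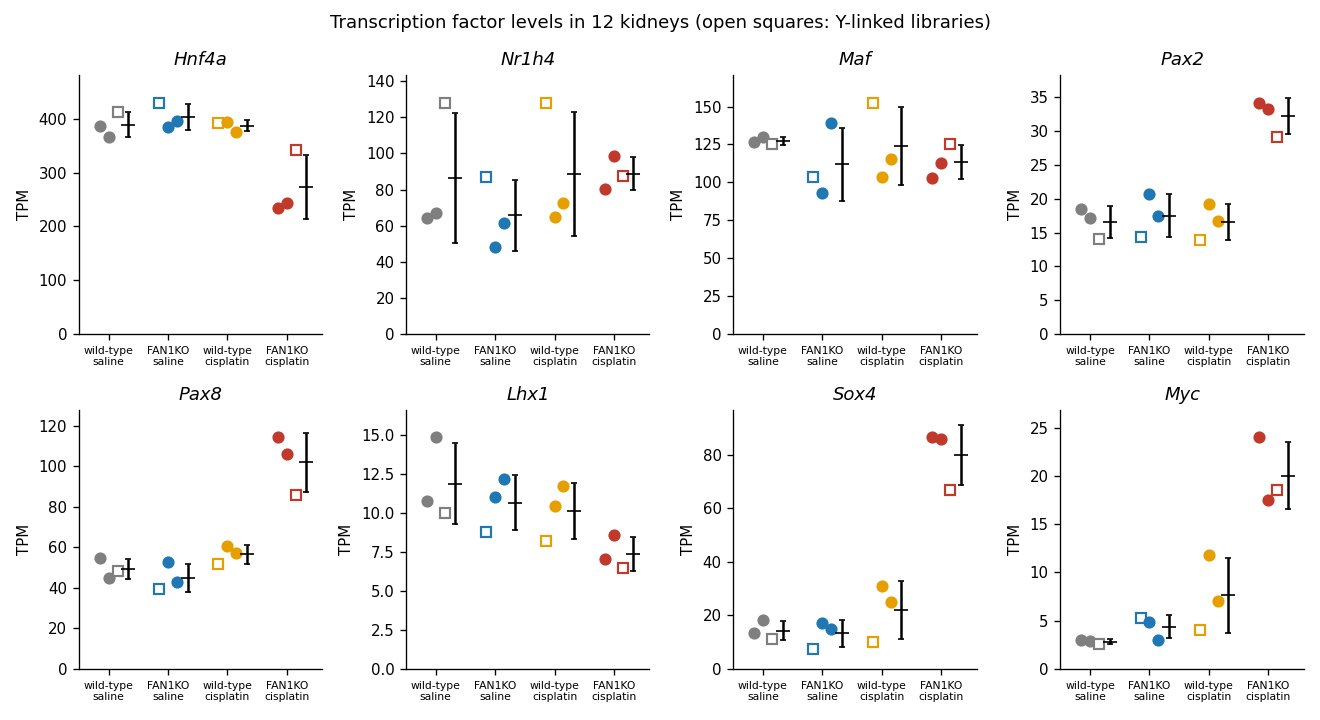
TPM (vertical axes from 0) of the 8 factors in each of 12 kidneys, by group; circles and open squares are single kidneys, squares are the 4 libraries with Y-linked RNA, and the black mark with bars is the mean ± SD (n = 3). Pax2, Pax8, Sox4 and Myc stand above every other group in the FAN1KO cisplatin kidneys, and Hnf4a stands below.

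Because Hnf4a fell while Pax8 and Sox4 rose in the FAN1KO cisplatin kidneys, the sequences in front of their start sites are shown, each as the 250 bases before a RefSeq start on GRCm38.p6 (mm10), 5′ to 3′ on the gene's strand. Capitals mark CCAAT or its reverse complement ATTGG, the CCAAT box of many promoters, which was picked after the sequences were read. The Hnf4a window is that of the downstream of its 2 listed starts, 40298 bases from the other and inside the gene; gene-level TPM cannot split the starts.
Hnf4a (chr2:163546905-163547154, + strand): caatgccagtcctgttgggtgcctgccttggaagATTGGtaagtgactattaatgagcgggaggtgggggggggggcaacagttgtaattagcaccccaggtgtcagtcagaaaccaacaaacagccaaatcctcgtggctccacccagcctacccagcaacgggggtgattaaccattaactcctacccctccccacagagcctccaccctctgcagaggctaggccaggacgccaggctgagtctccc
Pax8 (chr2:24475600-24475849, − strand): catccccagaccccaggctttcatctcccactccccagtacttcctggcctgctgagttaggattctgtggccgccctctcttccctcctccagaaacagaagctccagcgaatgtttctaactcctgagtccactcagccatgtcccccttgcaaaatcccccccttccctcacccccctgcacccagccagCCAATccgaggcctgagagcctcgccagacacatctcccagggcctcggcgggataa
Sox4 (chr13:28953700-28953949, − strand): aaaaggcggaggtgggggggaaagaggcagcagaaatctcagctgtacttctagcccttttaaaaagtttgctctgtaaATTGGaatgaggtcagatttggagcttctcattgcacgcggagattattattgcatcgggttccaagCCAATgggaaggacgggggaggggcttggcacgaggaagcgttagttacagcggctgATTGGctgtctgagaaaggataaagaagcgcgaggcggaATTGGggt
The Sox4 window held 4 CCAAT boxes and the Pax8 and Hnf4a windows 1 each, and 33.8% of the 32851 windows of this length in the table held at least 1. Pax2 also rose, and its 3 listed windows held no CCAAT box. The Nr1h4 window held none and the Lhx1 window held 1. The Sox4 window had 11 CG pairs, that of Pax8 6 and that of Hnf4a 4, where the median of all windows was 6. Windows were listed for 6 of the 8 factors (Hnf4a, Nr1h4, Pax2, Pax8, Lhx1 and Sox4). On either strand, none held the E-box CACGTG that Myc binds (6.02% of all windows), the HNF4 motif CAAAGTNCA (1.19%) or the SOX motif AACAAT (9.42%), which says only that these letters are not in these windows.

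Under cisplatin, 5 of the 8 factors differed between FAN1KO and wild-type kidneys, with Hnf4a lower and Pax2, Pax8, Sox4 and Myc higher. Over all genes tested, 23.9% were called in this comparison, 19.6% as higher and 4.37% as lower (limma on log2(TPM + 1), adjusted p under 0.05). The same 5 factors were called, in the same directions, for cisplatin against saline in FAN1KO kidneys, where 39.8% of all genes were called, 34.9% as higher and 4.9% as lower. The 2 comparisons share the FAN1KO cisplatin libraries. Values of the 3 mice did not overlap between groups for 5 of 8 factors in the first comparison (44.3% of all genes) and for 6 of 8 in the second (54.9%). In each of these cases the exact two-sided permutation test gave p = 0.1, the smallest that 3 mice against 3 allow.

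**Figure D2:**
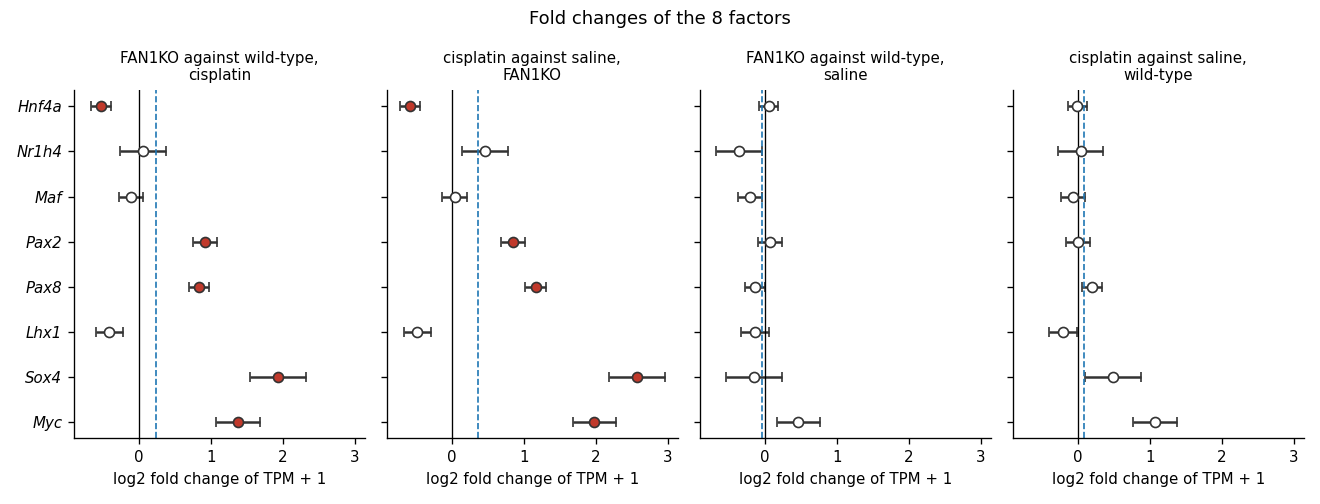
Log2 fold change ± SE of each factor (horizontal axis, log2 of TPM + 1) in 4 comparisons of 3 against 3 kidneys; filled points have an adjusted p under 0.05 in limma, the solid line is 0 and the dashed line the median of all genes tested. The 5 filled points are the same factors in the panels on the left, with none filled in the saline and wild-type panels on the right.

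Hnf4a (NCBI Gene 15378, chr2:163506811-163572907), the nuclear receptor that keeps proximal tubule genes on, was the one identity factor that fell. Hnf4a TPM with saline was 386, 366 and 413 in wild-type and 430, 384 and 396 in FAN1KO mice, and with cisplatin it was 391.8, 394 and 375 in wild-type and 234, 243 and 342 in FAN1KO mice. All 3 FAN1KO cisplatin kidneys lay below the other 9, and the highest of them was the library with Y-linked RNA. The mean dropped from 387 ± 10.4 to 273 ± 59.9 (SD, n = 3) between genotypes under cisplatin, which was −0.52 on the log2 scale (SE 0.13, limma adjusted p = 0.0201), or −0.77 relative to the median of all genes. Against FAN1KO saline kidneys it was −0.58 (SE 0.13, adjusted p = 0.00737). The difference between genotypes was −0.69 (adjusted p = 0.00161) without the 4 libraries with Y-linked RNA. Its call was lost when only the 6 cisplatin libraries were fitted (adjusted p = 0.0734) and without FAN1KO cisplatin 1 (0.0888), FAN1KO cisplatin 2 (0.0802), wild-type cisplatin 1 (0.0578) or wild-type cisplatin 2 (0.0505), with values from −0.42 to −0.70 over the 12 libraries left out in turn. The antisense RNA gene Hnf4aos overlaps Hnf4a and had 4.93 to 23.3 TPM, and whether reads were assigned by strand is not given in the sources used here.

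Nr1h4 (20186, chr10:89454234-89533645), which encodes the bile acid receptor FXR, had a wide spread within groups. Nr1h4 TPM with saline was 64.4, 67.2 and 128 in wild-type and 87.2, 48.2 and 61.6 in FAN1KO mice, and with cisplatin it was 128, 65.0 and 72.5 in wild-type and 80.2, 98.3 and 87.6 in FAN1KO mice. The highest value was in the library with Y-linked RNA in all groups but FAN1KO cisplatin, and all groups overlapped. Its log2 fold change between genotypes under cisplatin was 0.06 (SE 0.32, adjusted p = 0.901), and −0.22 with median-ratio scaling. Cisplatin against saline in FAN1KO kidneys gave 0.47 (SE 0.32, adjusted p = 0.263), which became a call at 0.69 (adjusted p = 0.00652) without the 4 libraries with Y-linked RNA.

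Maf (17132, chr8:115703253-115706894), a basic leucine zipper factor of the proximal tubule, was close to level. Maf TPM with saline was 127, 130 and 125 in wild-type and 103, 93.2 and 139 in FAN1KO mice, and with cisplatin it was 153, 103 and 115 in wild-type and 103, 113 and 125 in FAN1KO mice. The groups overlapped, and the lowest and highest values lay in FAN1KO saline and wild-type cisplatin kidneys. The log2 fold change between genotypes under cisplatin was −0.11 (SE 0.17, adjusted p = 0.677), and no setting tried called Maf in any comparison.

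Pax8 (18510, chr2:24420551-24475599), a paired-box factor of the forming nephron that adult tubules still express, rose in FAN1KO cisplatin kidneys. Pax8 TPM with saline was 54.5, 44.9 and 48.1 in wild-type and 39.4, 52.7 and 42.7 in FAN1KO mice, and with cisplatin it was 51.6, 60.8 and 57.0 in wild-type and 114, 106 and 85.9 in FAN1KO mice. The lowest FAN1KO cisplatin kidney, the one with Y-linked RNA, was above every kidney of the other groups. The mean was 1.81 times that of wild-type cisplatin kidneys, or 0.84 on the log2 scale (SE 0.14, adjusted p = 0.00321). In FAN1KO kidneys cisplatin against saline gave 1.16 (SE 0.14, adjusted p = 0.000315), or 0.79 above the median of all genes.

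Pax2 (18504, chr19:44746601-44838269), the paired-box factor needed for kidney formation, rose by a like amount from a lower level. Pax2 TPM with saline was 18.5, 17.2 and 14.0 in wild-type and 14.4, 20.8 and 17.4 in FAN1KO mice, and with cisplatin it was 13.9, 19.3 and 16.7 in wild-type and 34.2, 33.2 and 29.1 in FAN1KO mice. The other 3 groups covered the same range, and the FAN1KO cisplatin kidneys stood apart from them. The log2 fold change between genotypes under cisplatin was 0.92 (SE 0.16, adjusted p = 0.00401) and 0.64 with median-ratio scaling (adjusted p = 0.0013). Cisplatin against saline gave 0.85 in FAN1KO kidneys (SE 0.16, adjusted p = 0.00296). The noncoding gene 1700039E22Rik, which overlaps Pax2, had 0.181 to 1.52 TPM.

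Lhx1 (16869, chr11:84517975-84525534), a LIM homeobox factor of the early nephron, was lowest in FAN1KO cisplatin kidneys on average but was not called. Lhx1 TPM with saline was 10.8, 14.8 and 10.0 in wild-type and 8.78, 11.0 and 12.2 in FAN1KO mice, and with cisplatin it was 8.20, 10.4 and 11.8 in wild-type and 7.04, 8.60 and 6.46 in FAN1KO mice. FAN1KO cisplatin kidneys lay just below FAN1KO saline kidneys without overlap, and overlapped wild-type cisplatin kidneys at 1 kidney. The log2 fold change was −0.41 between genotypes under cisplatin (SE 0.19, adjusted p = 0.144) and −0.48 for cisplatin in FAN1KO kidneys (SE 0.19, adjusted p = 0.0697). Both values were called with median-ratio scaling, at −0.66 (adjusted p = 0.0103) and −0.86 (adjusted p = 0.0017). Both were also called with a Y-linked covariate, and cisplatin in FAN1KO kidneys also without mitochondrially encoded genes (−0.61, adjusted p = 0.0378) and without the 4 libraries with Y-linked RNA (−0.52, adjusted p = 0.0362).

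Sox4 (20677, chr13:28948919-28953699), a SoxC factor of embryonic and regenerating tissue, had the largest change of the 8. Sox4 TPM with saline was 13.4, 18.1 and 11.1 in wild-type and 7.51, 17.1 and 15.04 in FAN1KO mice, and with cisplatin it was 10.1, 31.1 and 24.9 in wild-type and 86.4, 85.9 and 66.8 in FAN1KO mice. The lowest FAN1KO cisplatin kidney held more Sox4 than any other kidney, and the library with Y-linked RNA was the lowest of every group. The mean was 3.62 times that of wild-type cisplatin kidneys (log2 fold change 1.93, SE 0.39, adjusted p = 0.00677) and 6.03 times that of FAN1KO saline kidneys (log2 fold change 2.57, SE 0.39, adjusted p = 0.000915). Without the 4 libraries with Y-linked RNA these log2 values were 1.60 and 2.35, and both were called.

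Myc (17869, chr15:61985341-61990361), which drives growth and ribosome production, was the lowest factor under saline. Myc TPM with saline was 3.01, 2.89 and 2.58 in wild-type and 5.28, 4.89 and 3.00 in FAN1KO mice, and with cisplatin it was 4.06, 11.8 and 7.00 in wild-type and 24.0, 17.5 and 18.6 in FAN1KO mice. Myc had 164 to 1205 recovered reads per library, and the fewest of the 8 under saline. In FAN1KO cisplatin kidneys Myc had 944 to 1205 reads, where Lhx1 had fewer (394 to 531). The log2 fold change was 1.38 between genotypes under cisplatin (SE 0.30, adjusted p = 0.00992) and 1.98 for cisplatin in FAN1KO kidneys (SE 0.30, adjusted p = 0.000936).

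**Figure D3:**
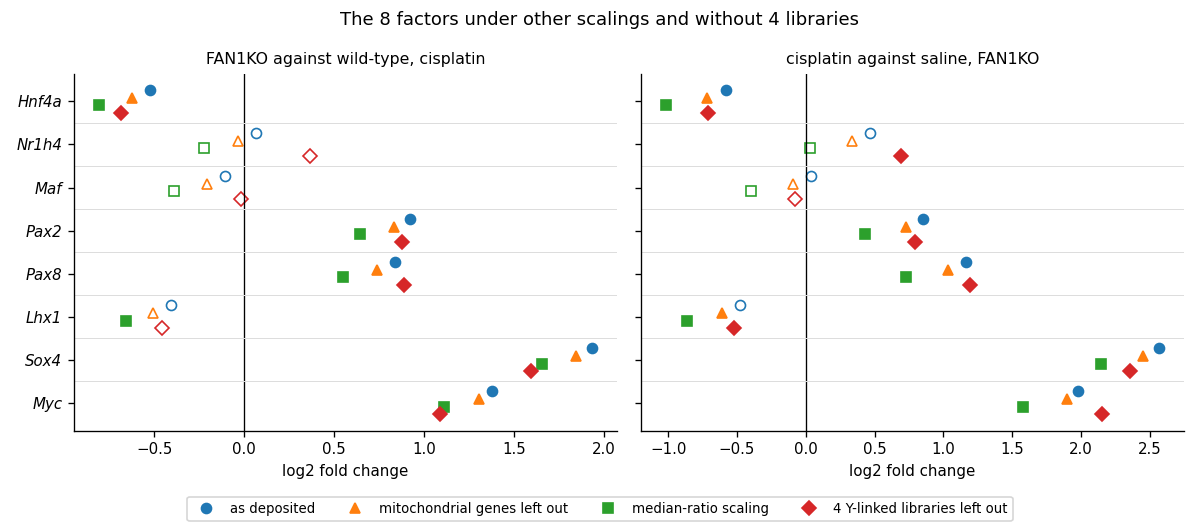
Log2 fold change of each factor (horizontal axis) for FAN1KO against wild-type under cisplatin (left) and cisplatin against saline in FAN1KO kidneys (right), from the TPM as deposited, without mitochondrially encoded genes, with median-ratio scaling, and without the 4 libraries with Y-linked RNA; filled symbols have an adjusted p under 0.05 in limma. Hnf4a stays to the left of 0 and Pax2, Pax8, Sox4 and Myc to the right, all filled, while Lhx1 and Nr1h4 change between open and filled.

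Wild-type kidneys showed no called change in the 8 factors after cisplatin (limma, 0 of 8; 1 of 8 at an unadjusted p under 0.05, 0 by voom on recovered reads), where 0.0601% of all genes were called. Myc was the factor with that unadjusted p, at 1.07 on the log2 scale (SE 0.30, unadjusted p = 0.00469, adjusted p = 0.937), and was the one factor of 8 whose groups did not overlap (6.28% of all genes). Sox4 was at 0.49 (SE 0.39) and Pax8 at 0.20 (SE 0.14), and the other 5 lay between −0.20 and 0.04. Genotype without the drug called 0 of 8 factors as well (0 at an unadjusted p under 0.05, 0 by voom), against 0.768% of all genes, with no factor free of overlap (12.5% of all genes). Log2 values for FAN1KO against wild-type saline kidneys ran from −0.36 for Nr1h4 to 0.47 for Myc.

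Whether cisplatin acted differently in the 2 genotypes was tested as an interaction, in which 6.24% of all genes were called. It called 1 of the 8 factors, Pax8, whose cisplatin effect was 0.97 larger in FAN1KO than in wild-type kidneys on the log2 scale (SE 0.20, adjusted p = 0.0240). Sox4 gave 2.08 (SE 0.55, adjusted p = 0.0506), Pax2 0.85 (SE 0.23, adjusted p = 0.0560), Hnf4a −0.58 (SE 0.19, adjusted p = 0.0942) and Myc 0.91 (SE 0.43, adjusted p = 0.214). For Sox4, Pax2, Hnf4a and Myc, a difference between genotypes in the cisplatin effect was thus not shown. Myc had also been higher in wild-type cisplatin than wild-type saline kidneys. With the 4 libraries with Y-linked RNA left out, 4 factors were called in the interaction (Hnf4a, Pax2, Pax8 and Sox4). The Pax8 call was lost with median-ratio scaling (adjusted p = 0.0615) and without any 1 of 6 libraries (wild-type saline 1, FAN1KO saline 1, FAN1KO saline 3, wild-type cisplatin 1, FAN1KO cisplatin 1 and FAN1KO cisplatin 2; adjusted p from 0.0528 to 0.0669).

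Other factors and targets of each pathway were read from lists. Of 7 other factors of the proximal tubule, 2 fell and none rose after cisplatin in FAN1KO kidneys, with a list median of −0.12 beside 0.37 for all genes, and the 2 were Klf15 (−0.76, adjusted p = 0.0224) and Esrra (−0.49, adjusted p = 0.00549), a driver of mitochondrial genes. The call of Klf15 was lost in 5 of 22 alternatives. In that comparison 4.9% of all genes were called lower. Of 10 genes known as Hnf4a targets, 5 fell and none rose between genotypes under cisplatin, where 4.37% of all genes were called lower. The list median was −1.09, beside 0.24 for all genes. The 5 were Slc22a6 (−2.04) and Slc22a8 (−1.76), organic anion transporters, G6pc (−1.60) and Fbp1 (−1.29), enzymes of gluconeogenesis, and Apom (−1.59), an apolipoprotein, and Fbp1 and Apom are named here after their values were seen. The call of Slc22a6 was lost in 11 of 22 alternatives, 8 of which left out 1 library, and those of Slc22a8 and G6pc in none. Fbp1 had a mean of 677 ± 49.5 TPM in FAN1KO cisplatin against 1652 ± 64.7 in wild-type cisplatin kidneys (SD, n = 3). The brush border genes Cdhr2, Cdhr5 and Anks4b of the same list, picked after their values were seen, had values of 0.03 to 0.20 and were not called. Among 3 FXR targets that could be tested, none was called between genotypes, and Slc51a, a bile acid exporter subunit, fell after cisplatin in FAN1KO kidneys (−1.58, SE 0.49, adjusted p = 0.0261), a call lost without FAN1KO saline 1, FAN1KO cisplatin 1 or FAN1KO cisplatin 2. Without the 4 libraries with Y-linked RNA, 2 of the 3 FXR targets were lower between genotypes. Of 4 other Maf family members tested, Maff, a small Maf protein induced by stress, rose between genotypes under cisplatin (2.03, SE 0.31, adjusted p = 0.00189). After cisplatin in FAN1KO kidneys Maff (3.13, adjusted p = 0.000127) and Mafk (0.74, adjusted p = 0.00105) rose. The shares of all genes called higher in these comparisons were 19.6% and 34.9%.

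Of 19 other regulators of nephron progenitors and patterning, 14 could be tested and none was called between genotypes under cisplatin, with a median of 0.01, whereas 1 was higher and 2 were lower without the 4 libraries with Y-linked RNA. The progenitor factors Six2 and Eya1 stayed at group means of at most 0.0863 TPM. After cisplatin in FAN1KO kidneys 2 of these 14 rose, the Notch effector Hes1 (1.17, adjusted p = 0.0246) and Mycn (0.66, adjusted p = 0.0271), calls lost in 4 and 6 of 22 alternatives, median-ratio scaling among them. In that comparison 34.9% of all genes were called higher, and the list median was 0.22 beside 0.37 for all genes. Of 6 induction signals tested between genotypes, Wnt4, which drives the step from mesenchyme to epithelium, rose (1.06, SE 0.32, adjusted p = 0.0357) and the GDNF co-receptor Gfra1 fell (−1.47, SE 0.47, adjusted p = 0.0434). Between genotypes 19.6% of all genes were called higher and 4.37% lower. The median of the induction signals was 0.34, beside 0.24 for all genes. Of 12 factors of the distal nephron and collecting duct, 1 rose between genotypes (Elf5, 1.13, adjusted p = 0.0268), and 4 rose after cisplatin in FAN1KO kidneys, Elf5 (1.14), Tfap2b (1.14), Gata3 (1.08) and Grhl2 (0.96), the last named after its value was seen. That count is close to the 34.9% of all genes called higher, and was 1 with median-ratio scaling, 1 without mitochondrially encoded genes and 6 without the 4 libraries with Y-linked RNA, and the calls of Tfap2b and Gata3 were lost in 13 and 10 of 22 alternatives. Between genotypes the calls were lost in 9 of 22 alternatives for Wnt4, 13 for Gfra1 and 6 for Elf5, whereas after cisplatin in FAN1KO kidneys Wnt4 was at 1.63 (adjusted p = 0.00309).

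Of 13 tested factors known from injured or repairing tubules, 7 rose and none fell between genotypes under cisplatin, with a median of 1.06, and 9 rose after cisplatin in FAN1KO kidneys, with a median of 1.52. Over all genes, 19.6% and 34.9% were called higher in these comparisons, with medians of 0.24 and 0.37. Runx1, among the 13, passed the filter on low values only through the FAN1KO cisplatin kidneys (2.29 to 5.03 TPM, at most 0.90 elsewhere). Its part in these list values is thus not independent of the filter. The count between genotypes was 5 higher with median-ratio scaling, 4 without mitochondrially encoded genes, and 7 higher with 1 lower without the 4 libraries with Y-linked RNA. The largest rises between genotypes were Klf6 (2.06, SE 0.39, adjusted p = 0.00505), Sox9, a marker of regenerating tubule cells (1.92, SE 0.21, adjusted p = 0.000444), and Klf4 (1.38, SE 0.37, adjusted p = 0.0238), whose call was lost without wild-type cisplatin 1 or FAN1KO cisplatin 1. Sox9 rose from a mean TPM of 1.58 ± 0.66 to 8.59 ± 1.24 (SD, n = 3), and its interaction was called (2.17, SE 0.30, adjusted p = 0.0064). Sox12, a SoxC relative of Sox4 picked after its values were seen, rose as well (0.79, SE 0.22, adjusted p = 0.0290), while the third SoxC gene, Sox11, had a mean of 0.92 TPM in FAN1KO cisplatin kidneys and at most 0.13 in the other groups and was not among the genes tested. Snai1, Snai2, Twist1 and Zeb1, drivers of the mesenchymal state and likewise picked afterwards, were not called and lay between −0.62 and −0.10.

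Myc partners and targets were read in the same way. Of 9 partners and antagonists, 2 rose between genotypes under cisplatin, the antagonists Mxd3 (0.98, SE 0.17, adjusted p = 0.00398) and Mnt (0.44, SE 0.14, adjusted p = 0.0426), with a median of 0.35, a count close to the 19.6% of all genes called higher. The call of Mnt was lost in 13 of 22 alternatives and that of Mxd3 in none. Mxd3 and the uncalled Mycl passed the filter on low values only through the FAN1KO cisplatin kidneys. Mxd3 had 2.64 to 3.53 TPM there and at most 1.46 elsewhere, so its call and its place in the count are not independent of the filter. Of 14 known Myc targets, 6 rose and none fell, with a median of 0.53, led by the nucleolar protein genes Ncl (0.94, SE 0.14, adjusted p = 0.00206) and Npm1 (0.77, SE 0.15, adjusted p = 0.00644) and by Cdk4 (0.77, SE 0.13, adjusted p = 0.00334), the cell cycle kinase. After cisplatin in FAN1KO kidneys 10 of the 14 rose, where 34.9% of all genes were called higher. With median-ratio scaling 3 of 14 targets were higher between genotypes, with a median of 0.25. Odc1, a classical target named after its values were seen, had a log2 fold change of −0.49 and was not called. Odc1 TPM ran from 149 to 590 in wild-type cisplatin and from 159 to 187 in FAN1KO cisplatin kidneys, so the groups overlapped.

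**Figure D4:**
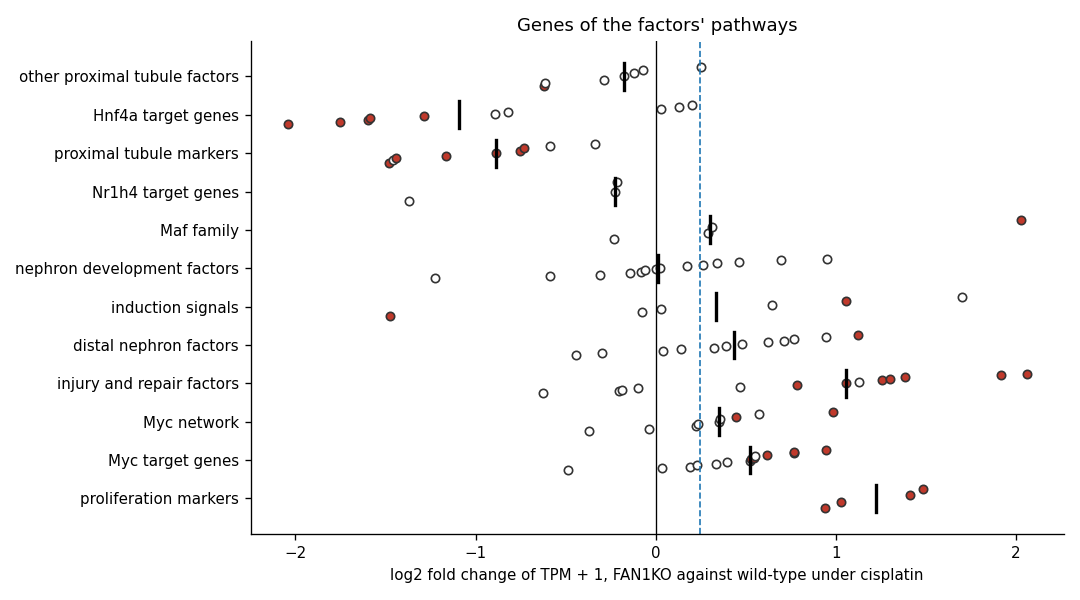
Log2 fold change of TPM + 1 (horizontal axis) for FAN1KO against wild-type kidneys under cisplatin, 1 point per tested gene of each list; filled points have an adjusted p under 0.05 in limma, thick bars are list medians, the solid line is 0 and the dashed line the median of all genes. Hnf4a targets and proximal tubule markers lie to the left, with medians of −1.09 and −0.89, and repair factors, Myc targets and proliferation markers to the right.

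Markers of cell types were read beside these factors. Of 9 proximal tubule markers 6 fell between genotypes under cisplatin, led by Miox (−1.48), Lrp2 (−1.44) and Slc34a1 (−1.17), and none rose; their summed TPM was 9411 to 10962 in wild-type cisplatin and 3421 to 6649 in FAN1KO cisplatin kidneys. In whole kidneys, fewer proximal tubule cells and less RNA per cell cannot be told apart, and the part of either in the fall of Hnf4a was not tested. All 4 markers of injured tubules (Krt20, Lcn2, Havcr1 and Vcam1) and all 4 of dividing cells (Cdk1, Top2a, Mki67 and Ccnb1) rose, with summed TPM of 32.8 to 148 against 778 to 1155 for the former and 1.85 to 4.70 against 12.6 to 16.2 for the latter. Krt20, Mki67 and Ccnb1 passed the filter on low values only through the FAN1KO cisplatin kidneys, so their calls are not independent of it. In wild-type cisplatin kidneys they reached at most 7.64, 1.16 and 0.70 TPM. The called markers of other cell types were Aqp2 and Aqp3, 2 of 4 for principal cells, 1 of 5 for macrophages (Cd68) and 1 of 4 tested for lymphocytes (Cd8a), all higher, and 1 of 3 for the distal convoluted tubule (Pvalb), which was lower. Over all genes, 19.6% were called higher and 4.37% lower in this comparison. No principal cell, macrophage or lymphocyte marker was called with median-ratio scaling, and none without mitochondrially encoded genes. Of 22 alternatives, 4 lost the call of Havcr1, 15 lost the call of Aqp2, 8 that of Aqp3, 16 that of Cd68 and 14 that of Cd8a, and none that of Pvalb. Summed TPM of principal cell markers was 335 to 690 in wild-type cisplatin and 926 to 1536 in FAN1KO cisplatin kidneys, and that of macrophage markers was 62.5 to 203 against 170 to 412. No list had a marker at 0 in every library of a group. None of the 4 thick ascending limb, 4 intercalated cell, 4 podocyte, 5 endothelial and 5 fibroblast markers was called; the endothelial median was −1.06, and 5 of 5 were called lower without the 4 libraries with Y-linked RNA. The part of these cell types in the rise of Pax2, Pax8, Sox4 and Myc was not tested.

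Over the 12 libraries, the genes whose log2(TPM + 1) was most like each factor's were found by Pearson's r, as a description in which the points share the same 4 groups. Hnf4a was nearest to Aldh8a1 (r = 0.98), an aldehyde dehydrogenase of tryptophan metabolism, and Gatb (0.97). Pax2 was nearest to Adgrg6 (0.99) and Ppp4r2 (0.99), and Pax8 to Zfas1 (0.99) and Lin37 (0.99). Sox4 was nearest to Mvp (0.99), the major vault protein, and Eef1b2 (0.99), a translation elongation factor, and Myc to Ltbp2 (0.99) and Cxcl1 (0.98), a chemokine. Lhx1 was nearest to the respiratory chain genes Ndufa9 (0.95) and Cox7a1 (0.93), Nr1h4 to Misp3 (0.95) and Nudt8 (0.92), and Maf to Lama3 (0.85) and Bid (0.80). Maf had the lowest likeness of the 8.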

How the data were processed

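RNA was taken from flash-frozen kidneys of 12 mice with the RNeasy Mini Kit and sequenced as paired reads. The authors deposited 1 table of TPM values, which have the same sum in each library. The submitters' notes name the build mm10 and limma; the aligner, the counter and the annotation are not given in the sources used here. Gene names came from RefSeq on GRCm38.p6, which paired 25275 of 27179 identifiers with a name.

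The 14972 genes that reached a TPM of 1 in 3 or more libraries were taken to log2(TPM + 1), a scale that understates changes of low genes. One mean per group was fitted over the 12 libraries with limma 3.58.1 in R 4.3.3 (empirical Bayes with a mean-variance trend), and p-values were adjusted by Benjamini-Hochberg over all 14972 genes, called under 0.05. Tables and figures were made in Python 3.11.15 with numpy 2.4.6, pandas 2.3.3, scipy 1.17.1 and matplotlib 3.10.9, and the fit was tested on simulated data.

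Low TPM values are whole multiples of the value of 1 read, within 0.02 reads, for 22555 of 22557 genes above 0, so that whole reads were recovered; voom on these reads and leaving out the 4 libraries with Y-linked RNA were alternatives chosen after seeing the data. The 8 factors and the lists beside them were chosen with earlier results of these data known. From each list, up to 3 of the largest called rises and falls in a comparison were named, and for each factor the 2 genes most correlated with it. Some results of the listed genes are not reported here.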

Additional observations from a re-analysis of the deposited data

Results flagged for a closer look

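Pax8 was marked because the effect of cisplatin differed between the genotypes by a test of that difference. The log2 fold change for cisplatin was 1.16 in FAN1KO and 0.20 in wild-type kidneys, a difference of 0.97 (SE 0.20, limma adjusted p = 0.0240). All 3 FAN1KO cisplatin kidneys were above all 3 FAN1KO saline kidneys. Over the alternatives the adjusted p ran from 0.00187 to 0.0669.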

How the results depend on the processing

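Pax2, Pax8, Sox4 and Myc remained called in both comparisons that hold FAN1KO cisplatin kidneys under all 22 alternatives, as did Hnf4a for cisplatin against saline. In the interaction, in which 1 factor was called, 2 were called with median-ratio scaling, 2 with the replicate block, 4 with a Y-linked covariate, 3 by voom and 4 without the 4 libraries with Y-linked RNA, and leaving out 1 library at a time gave 0 to 2. Replicate numbers did not pair the kidneys (mean correlation of same-numbered deviations −0.24 to −0.14), and the block moved no other count of factors called.

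Uncalled values turned sign as follows. Between genotypes under cisplatin, Nr1h4 was at −0.22 with median-ratio scaling and −0.035 without mitochondrially encoded genes. Between genotypes under saline, Sox4 was at 0.039 without the libraries with Y-linked RNA. For cisplatin in FAN1KO kidneys, Maf was at −0.40, −0.095, −0.0067 and −0.079 with median-ratio scaling, without mitochondrially encoded genes, by voom and without the libraries with Y-linked RNA. For cisplatin in wild-type kidneys, Hnf4a was at 0.030 without those libraries, Nr1h4 at −0.057 with median-ratio scaling, and Pax2 at −0.088, −0.027 and −0.028 with median-ratio scaling, without mitochondrially encoded genes and by voom. In the interaction, Maf was at −0.24 with median-ratio scaling and −0.0034 without mitochondrially encoded genes. The cause was not tested.

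Leaving out 1 library at a time gave ranges across 0 between genotypes under cisplatin for Nr1h4 (−0.12 to 0.36) and Maf (−0.23 to 0.054), between genotypes under saline for Pax2 (−0.053 to 0.20), Lhx1 (−0.24 to 0.023) and Sox4 (−0.36 to 0.19), for cisplatin in FAN1KO kidneys for Maf (−0.081 to 0.21), for cisplatin in wild-type kidneys for Hnf4a (−0.047 to 0.040), Nr1h4 (−0.26 to 0.36), Maf (−0.22 to 0.060) and Pax2 (−0.11 to 0.12), and in the interaction for Maf (−0.021 to 0.27).

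With 3 mice a group, the count of all genes called ran over the alternatives from 1539 to 7323 between genotypes under cisplatin (3585 as reported), 27 to 421 under saline (115), 3622 to 9141 for cisplatin in FAN1KO kidneys (5962), 0 to 63 in wild-type kidneys (9) and 269 to 4734 in the interaction (935).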
